A study of Mus musculus with 6 samples.

Results

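The 10 genes described here encode enzymes that protect cells from oxidants, and they were chosen by name from the 32212 rows of a liver count table. The first 6, Nqo1, Gclc, Gclm, Txnrd1, Srxn1 and Hmox1, are textbook targets of the transcription factor NRF2, and the other 4, Cat, Sod1, Sod2 and Gpx1, remove superoxide or peroxide directly. All 10 rows were found, and all 10 passed the filter on low counts that left 13867 genes for testing. The livers came from male C57BL/6 mice aged 2 yr on a normal chow diet, 3 wild type (WT) and 3 lacking chromogranin A (CgA-KO), the prohormone encoded by Chga. All 6 mice shared sex, age, diet and strain background, and no other allele or agent is named for either genotype. Each library was made from poly(A)-selected RNA of a piece of 1 whole liver, so that every cell type of the liver contributed to each value. The study profiled these livers to look for mechanisms behind the return of blood pressure to normal in CgA-KO mice.

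NRF2, the product of Nfe2l2, is held low in resting cells by KEAP1, which hands it over for degradation. When oxidants or electrophiles modify KEAP1, NRF2 accumulates, pairs with a small MAF protein and binds the antioxidant response element, a short DNA motif whose core reads TGACNNNGC, while BACH1 competes for the same motif and is displaced by heme. The genes that follow supply glutathione (Gclc, Gclm), reduce thioredoxin (Txnrd1), repair over-oxidized peroxiredoxins (Srxn1), reduce quinones (Nqo1) and break down heme (Hmox1). Superoxide is turned into hydrogen peroxide by SOD1 in the cytosol and SOD2 in mitochondria, and the peroxide is removed by catalase in peroxisomes and by the selenoenzyme GPX1. The liver is rich in all 4 of the latter enzymes.

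The element core was looked for on both strands of the 300-base windows that RefSeq places around each gene's start on GRCm38.p6 (250 bases before the start and 50 after it). There were 10 such windows for 8 of the 10 genes, and none for Hmox1 or Gclc. Srxn1, Gclm, Txnrd1 and Sod1 held 1 match each, all 4 on the strand opposite to the gene, so that the match reads GCNNNGTCA along the gene, whereas Nqo1, Cat, Sod2 and Gpx1 held none. Bases outside these windows were not searched, so a gene without a match may hold the core elsewhere. The same core occurred in 4071 of all 32851 windows (12.4%). The matches are printed here, in capitals and with the bases around them, because NRF2 is thought to reach its targets through this core. Each stretch lies on the plus strand, 5′ to 3′, and a match is a run of letters and not a measured binding site.
Srxn1, chr2:152105542-152105570: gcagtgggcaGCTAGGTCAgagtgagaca
Gclm, chr3:122245397-122245457: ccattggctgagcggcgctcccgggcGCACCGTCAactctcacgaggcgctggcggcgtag
Txnrd1, chr10:82859088-82859148: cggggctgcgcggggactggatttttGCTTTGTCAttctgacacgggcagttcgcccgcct
Sod1, chr16:90220680-90220740: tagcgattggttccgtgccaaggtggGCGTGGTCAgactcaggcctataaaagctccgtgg
The centre of the match lay 32 bases after the start in Srxn1, and 130, 88 and 52 bases before the start in Gclm, Txnrd1 and Sod1. For Txnrd1 only 1 of its 3 RefSeq starts had it.

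Library totals ran from 10558616 to 31087453 counts, both extremes being WT, and TMM factors (edgeR's scaling of each library) from 0.756 to 1.12. Levels below are TMM-normalized counts scaled to the library total (CPM), given as the mean ± SD of 3 livers, and the floor that 3 counts set lay between 0.0965 and 0.284 CPM, covering counting error only. The lowest count of any of the 10 genes in any library was 94. Chga had 0 counts in all 6 libraries, so the deleted gene could not check the genotype labels. Hepatocyte markers were abundant in every library, with 9 genes summing to between 56689 and 95208 CPM in WT and between 48260 and 83689 CPM in CgA-KO livers. None of the 9 was called by edgeR, and 1 was called lower by DESeq2. Counts of same-genotype libraries differed beyond sampling noise, so each was kept as its own sample.

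One gene of the 10, Hmox1, rose in CgA-KO livers, and none fell, at an adjusted p under 0.05 (edgeR's quasi-likelihood test, Benjamini-Hochberg over the whole table). Over all genes tested 12.4% were called, 8.60% higher and 3.84% lower (69.1% of the calls higher, or 86.6% with library size alone as the scaling), so 1 of 10 was close to that background. At an unadjusted p under 0.05 the genes were 2 of 10, Hmox1 and Gclc, against 4032 of the 13867 genes tested, a larger share. DESeq2 also called these 2, Gclc being lower. The log2 fold change (CgA-KO over WT) was negative in 8 of the 10, and its median was -0.34, beside -0.01 over all genes tested. Under library size alone the median over all genes moved to 0.26 and that of the 10 genes to -0.10, with 6 of 10 negative. The distance between the medians was -0.33 with TMM and -0.36 with library size alone. A change of scaling shifts all genes by nearly the same amount, so this distance cannot check the scaling. The genotypes were separated without overlap in 4 of the 10 genes, Hmox1 and Nqo1 above WT and Gclc and Cat below it, where 33.6% of all genes tested were separated in the same way.

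**Figure D1:**
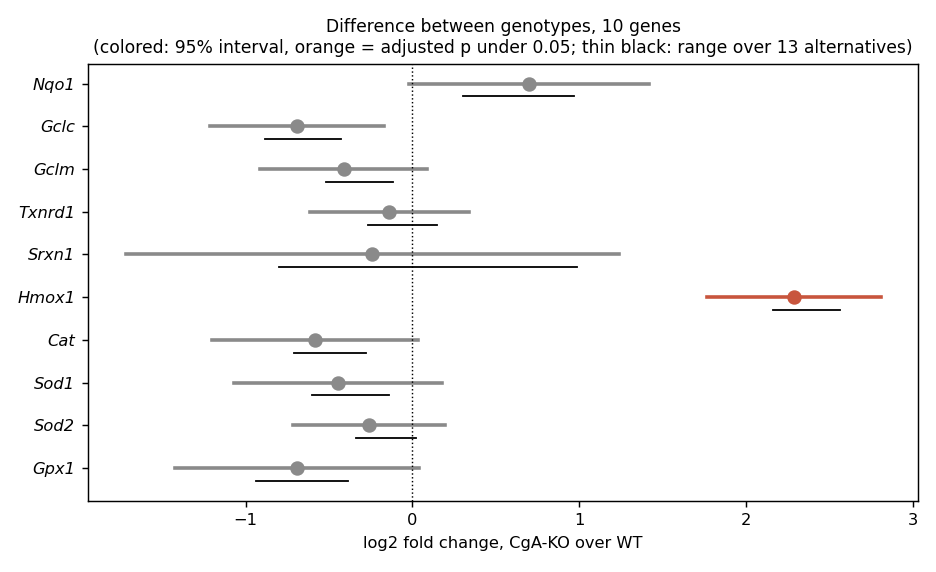
Log2 fold change of CgA-KO over WT livers for each of the 10 genes, with the 95% interval of the edgeR fit as the coloured bar (orange where called, grey otherwise) and the range over the 13 alternatives as the thin black line below it. The point of Hmox1 sits at 2.29 with its whole interval above 0, while the interval of Gclc ends just below 0 and the other 8 intervals cross it.

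Hmox1 encodes heme oxygenase 1, which opens the heme ring to give biliverdin, iron and carbon monoxide. It is inducible by NRF2, repressed by BACH1 and plentiful in macrophages that clear red cells. Hmox1 (chromosome 8, 75093621 to 75100589, GRCm38) was at 14.8, 15.7 and 12.0 CPM in the WT livers and at 51.1, 83.8 and 72.4 CPM in the CgA-KO livers. Every CgA-KO liver was more than 3 times above every WT liver, and the WT livers lay close together. The mean rose from 14.2 ± 1.93 to 69.1 ± 16.6 CPM, 4.89-fold or 2.29 on the log2 scale (standard error 0.230, 95% interval 1.77 to 2.81, edgeR quasi-likelihood adjusted p = 0.00282), rank 19 by p among all genes tested. It rested on 165, 369 and 283 counts in WT and 1100, 2642 and 1615 in CgA-KO. The two-sided exact permutation test gave p = 0.1, the lowest value reachable with 3 livers a side. Hmox1 kept the call under all 13 alternatives, with log2 fold changes between 2.17 and 2.56. In whole-liver RNA, more cells of a type and more of a transcript per cell cannot be told apart.

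Markers of Kupffer cells and macrophages moved with Hmox1. Of the 14 markers on that list 11 rose, none fell and none was at 0 in any library, with a median log2 fold change of 2.99. Their summed level was 353 to 603 CPM in the WT livers and 2102 to 2678 CPM in the CgA-KO livers. Adgre1, which encodes the macrophage surface protein F4/80, was at 6.72, 2.60 and 3.13 CPM in WT and at 68.7, 34.7 and 43.1 CPM in CgA-KO livers (log2 fold change 3.61, edgeR adjusted p = 0.00322). Vsig4, the complement receptor of resident macrophages, was at 24.5, 16.0 and 8.68 CPM in WT and at 138, 148 and 211 CPM in CgA-KO livers (log2 fold change 3.35, edgeR adjusted p = 0.00322). Neutrophil markers (3 of 5 tested rose, summed level 4.02 to 11.6 CPM in WT and 33.6, 37.0 and 375 CPM in CgA-KO, the highest in CgA-KO replicate 2), T and NK cell markers (7 of 9 rose, 4.76 to 15.6 and 50.5 to 151 CPM) and stellate cell markers (2 of 8 rose, 147 to 202 and 271 to 416 CPM) also ran higher. Of the 5 red cell markers tested, 2 rose and 1 fell, with sums of 118 to 291 CPM in WT and 335 to 477 CPM in CgA-KO livers. Each sum covers all markers with a row, tested or not. Of the 8 stellate cell markers 2 had negative log2 fold changes. Of 7 B and plasma cell markers none was called (20.8 to 118 CPM in WT, 39.2 to 116 CPM in CgA-KO). Of 5 tested bile duct markers none was called (19.2 to 30.6 and 18.6 to 73.6 CPM). Of 8 sinusoidal endothelium markers 1 rose and 1 fell (125 to 155 and 125 to 164 CPM). The number of markers that rose depended on single libraries, and leaving out 1 library at a time gave 7 to 11 for macrophages (7 without WT replicate 2), 0 to 7 for T and NK cells (0 without WT replicate 2 or 3), 0 to 5 for neutrophils (0 without WT replicate 3), 0 to 4 for stellate cells (0 without WT replicate 3 or CgA-KO replicate 1 or 2) and 0 to 3 for red cells (3 without WT replicate 1, otherwise 0). In limma-voom 3 T and NK cell markers rose, and with a replicate block no red cell marker did. The part of these cell types in the result for Hmox1 was not tested.

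**Figure D2:**
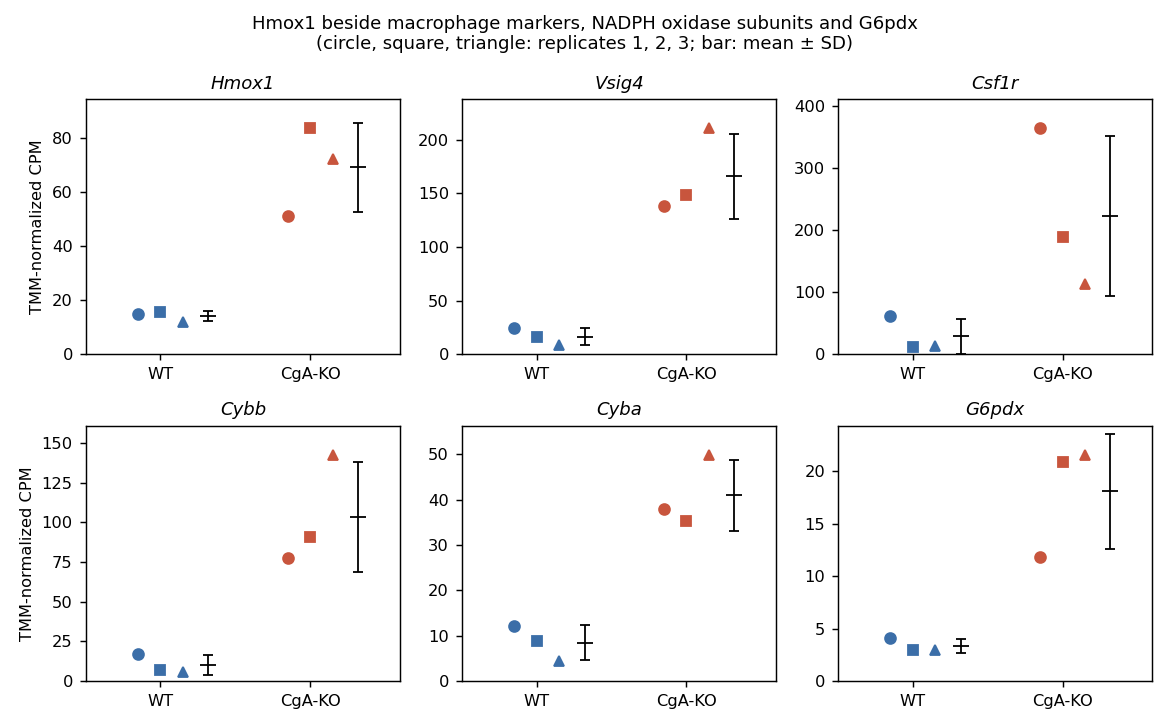
TMM-normalized CPM of Hmox1 in each of the 6 livers (circle, square and triangle for replicates 1, 2 and 3, bar for mean ± SD) beside the macrophage genes Vsig4 and Csf1r, the NADPH oxidase genes Cybb and Cyba, and G6pdx. Hmox1 is between 12.0 and 15.7 CPM in WT and between 51.1 and 83.8 CPM in CgA-KO livers, and the genotypes are separated in all 6 panels.

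Ratios of counts within a library set Hmox1 against single macrophage genes, and these pairs were chosen after the values were seen. For each Vsig4 read there were 0.602, 0.979 and 1.38 Hmox1 reads in the WT livers and 0.369, 0.565 and 0.343 in the CgA-KO livers. The ratio was lower in every CgA-KO liver, with a mean of 0.987 ± 0.389 in WT and 0.426 ± 0.122 in CgA-KO (log2 difference -1.17, two-sided exact permutation p = 0.1, adjusted over 6 ratios 0.48). Hmox1 over Clec4f, a lectin of Kupffer cells, differed by -0.82 on the log2 scale and Hmox1 over Csf1r, the macrophage growth factor receptor, by -0.95, both with overlapping genotypes and an exact permutation p = 0.4. Hmox1 over the hemoglobin scavenger receptor Cd163 differed by 1.01 in the other direction (exact permutation p = 0.5). With 3 livers a side the lowest exact permutation p that can be reached is 0.1. None of these differences could therefore pass the adjustment, and its outcome says nothing about them.

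Gclc and Gclm encode the catalytic and the modifier subunit of glutamate-cysteine ligase, the first and limiting step of glutathione synthesis. Gclc (chromosome 9, 77754535 to 77794485) was at 235, 237 and 259 CPM in WT and at 121, 139 and 193 CPM in CgA-KO livers. All 3 CgA-KO livers were below all 3 WT livers, and CgA-KO replicate 3 was nearest to WT. Averages of 244 ± 13.1 and 151 ± 37.6 CPM gave -0.69 as the log2 fold change (standard error 0.230, 95% interval -1.21 to -0.17), which missed the threshold with an edgeR quasi-likelihood adjusted p = 0.0835 and passed it in DESeq2 with an adjusted p = 0.0234. The two-sided exact permutation test gave p = 0.1. Gclm (chromosome 3, 122245557 to 122270732), whose matched promoter stretch is printed above, was at 141, 215 and 182 CPM in WT and at 125, 126 and 152 CPM in CgA-KO livers. Its genotypes overlapped, CgA-KO replicate 3 lying above WT replicate 1. Genotype means were 179 ± 36.7 and 135 ± 15.2 CPM (log2 fold change -0.41, 95% interval -0.91 to 0.09, edgeR adjusted p = 0.254). Counts of Gclc per count of Gclm were 1.67, 1.10 and 1.42 in WT and 0.967, 1.10 and 1.27 in CgA-KO livers, which overlapped in range (log2 difference -0.32, two-sided exact permutation p = 0.2), so a difference in the ratio of the subunits was not shown.

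Txnrd1 encodes the cytosolic thioredoxin reductase, a selenoenzyme. Txnrd1 (chromosome 10, 82833951 to 82897712) was at 111, 143 and 125 CPM in WT and at 106, 100.1 and 138 CPM in CgA-KO livers. The genotypes were interleaved, with CgA-KO replicate 3 again the highest of its genotype. Genotype means were 126 ± 16.2 and 115 ± 20.7 CPM, and the log2 fold change was -0.14 (95% interval -0.61 to 0.34, edgeR adjusted p = 0.712) and 0.15 with library size alone. The interval leaves room for a decrease or an increase of modest size.

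Srxn1 encodes sulfiredoxin, which rescues peroxiredoxins that have been inactivated by peroxide. Srxn1 (chromosome 2, 152105516 to 152111376) was at 152, 39.99 and 22.7 CPM in WT and at 44.9, 35.7 and 100.6 CPM in CgA-KO livers. It was the most scattered of the 10 genes, with 1 high liver in each genotype, WT replicate 1 and CgA-KO replicate 3. Genotype means were 71.6 ± 70.3 and 60.4 ± 35.1 CPM (log2 fold change -0.24, standard error 0.653, 95% interval -1.72 to 1.24, edgeR adjusted p = 0.847). The high WT value rested on 1699 counts in the shallowest library, against 940 and 537 in the other two. Without WT replicate 1 the log2 fold change was 0.99 (edgeR adjusted p = 0.205), and its sign also turned without CgA-KO replicate 2, in limma-voom and with a replicate block.

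Nqo1 encodes the quinone reductase that is often read as the standard marker of NRF2 activity. Nqo1 (chromosome 8, 107388225 to 107403206) was at 8.42, 8.59 and 6.40 CPM in WT and at 8.87, 9.99 and 19.1 CPM in CgA-KO livers. The CgA-KO livers lay above WT without overlap, yet the lowest of them was barely above the highest WT liver, and CgA-KO replicate 3 stood apart. Genotype means were 7.80 ± 1.22 and 12.7 ± 5.64 CPM (log2 fold change 0.70, 95% interval -0.02 to 1.42, edgeR adjusted p = 0.181, two-sided exact permutation p = 0.1). Without CgA-KO replicate 3 the log2 fold change was 0.30 (edgeR adjusted p = 0.524).

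CgA-KO replicate 3 was the highest CgA-KO library in 5 of the 6 NRF2 targets, the exception being Hmox1, whose highest value was in CgA-KO replicate 2. The count was the same with library size alone. Among 25 other NRF2 targets it was the highest CgA-KO library in 16, or in 15 with library size alone. In Cat, Sod1 and Sod2, by contrast, CgA-KO replicate 2 was the highest of its genotype. These counts describe 1 liver and carry no test, and the same share over all genes tested was not taken. Whether they are particular to NRF2 targets therefore cannot be told.

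**Figure D3:**
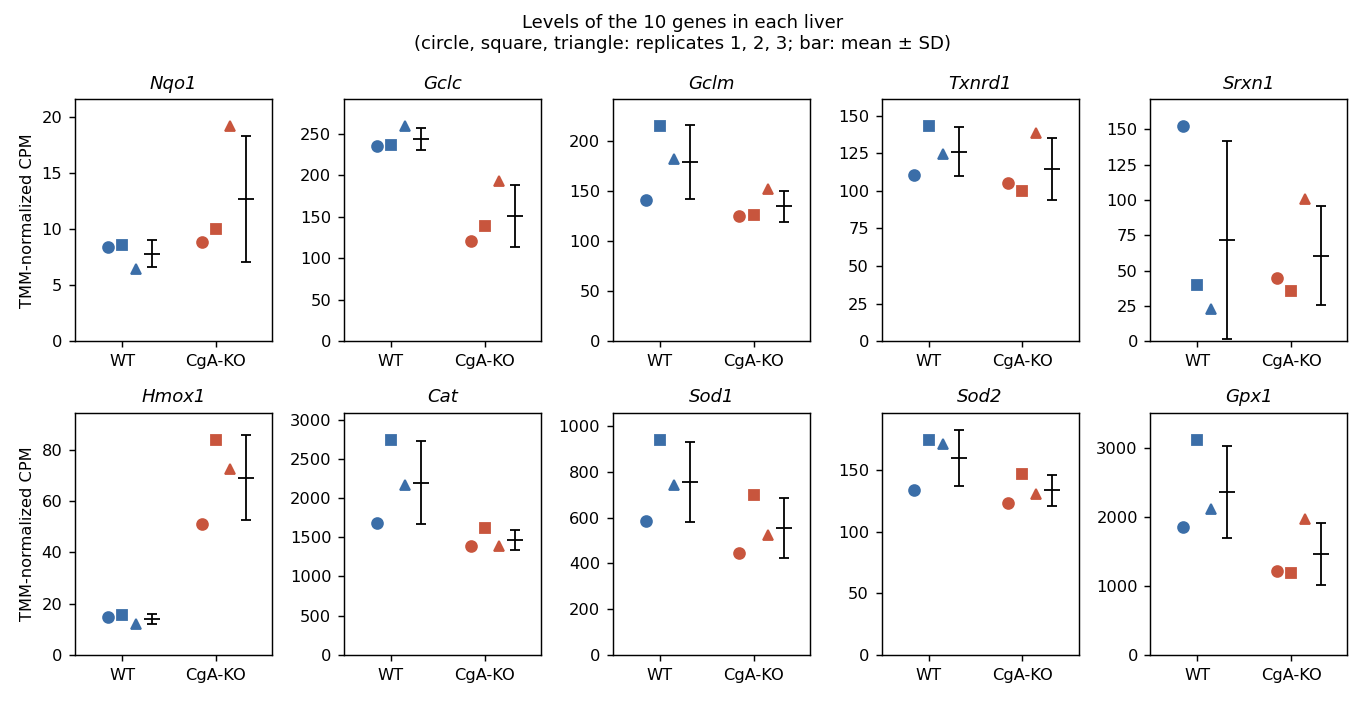
TMM-normalized CPM of each of the 10 genes in every library, with circle, square and triangle for replicates 1, 2 and 3 and a bar for the mean ± SD of each genotype, each panel with its own axis starting at 0. Hmox1, Nqo1, Gclc and Cat show separated genotypes, and Srxn1 has 1 high liver on each side, the WT one at 152 and the CgA-KO one at 100.6 CPM.

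The 4 enzymes that act on superoxide and peroxide all had negative log2 fold changes, with a median of -0.52, and none passed the test. Cat encodes catalase. Cat (chromosome 2, 103453849 to 103485160) was at 1683, 2738 and 2173 CPM in WT and at 1388, 1619 and 1388 CPM in CgA-KO livers. The CgA-KO livers were all below the lowest WT liver, by a small distance in replicate 2. Genotype means were 2198 ± 528 and 1465 ± 133 CPM (log2 fold change -0.59, 95% interval -1.20 to 0.03, edgeR adjusted p = 0.195, two-sided exact permutation p = 0.1).

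Gpx1 encodes glutathione peroxidase 1, the main peroxide-reducing selenoprotein of the liver. Gpx1 (chromosome 9, 108338903 to 108340343) was at 1856, 3121 and 2117 CPM in WT and at 1221, 1196 and 1978 CPM in CgA-KO livers. CgA-KO replicate 3 reached into the WT range while the other CgA-KO livers lay below it. Genotype means were 2365 ± 668 and 1465 ± 445 CPM (log2 fold change -0.69, 95% interval -1.42 to 0.04, edgeR adjusted p = 0.197).

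Sod1 (chromosome 16, 90220754 to 90226329), the cytosolic copper-zinc dismutase, was at 586, 939 and 743 CPM in WT and at 445, 698 and 523 CPM in CgA-KO livers. Genotype means were 756 ± 177 and 555 ± 129.6 CPM with overlapping genotypes (log2 fold change -0.45, 95% interval -1.07 to 0.18, edgeR adjusted p = 0.324). Sod2 (chromosome 17, 13006846 to 13040063), the mitochondrial manganese enzyme, was at 134, 174 and 171 CPM in WT and at 123, 147 and 130.3 CPM in CgA-KO livers. The least separated of these enzymes was Sod2, with means of 159.7 ± 22.6 and 133 ± 12.3 CPM and a log2 fold change of -0.26 (95% interval -0.71 to 0.19, edgeR adjusted p = 0.430) that became 0.025 with library size alone. The counts of Sod1 per count of Sod2 differed by -0.19 on the log2 scale (two-sided exact permutation p = 0.4). WT replicate 2, whose TMM factor of 0.756 was the lowest, was the highest WT library in all 4 enzymes and in 8 of the 10 genes, but in 3 of the 10 with library size alone.

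Levels of different genes were compared per kilobase of the principal transcript. In WT livers Gpx1 led with 2206 ± 623 CPM per kb, followed by Sod1 with 1179 ± 275 and Cat with 841 ± 202 CPM per kb. These 3 enzymes stood far above Gclc with 71.2 ± 3.83 CPM per kb. Txnrd1 (35.7 ± 4.59), Gclm (32.1 ± 6.57), Sod2 (27.2 ± 3.86) and Srxn1 (25.5 ± 25.0 CPM per kb) came next. Hmox1 with 9.02 ± 1.23 and Nqo1 with 5.02 ± 0.787 CPM per kb were the lowest. Of neighbours in this order, Sod1 and Cat, Txnrd1 and Gclm, Gclm and Sod2, Sod2 and Srxn1, and Srxn1 and Hmox1 had overlapping WT ranges. In CgA-KO livers Hmox1 was at 44.0 ± 10.6 CPM per kb, beside 44.1 ± 11.0 for Gclc, which again came after the same 3 enzymes, and Nqo1 stayed the lowest at 8.16 ± 3.63 CPM per kb. Sod1 overlaps Scaf4 and Txnrd1 overlaps Eid3 on the annotation, and the overlapping genes had 309 to 818 and 3 to 13 counts per library, against 6545 to 22060 for Sod1 and 1236 to 3362 for Txnrd1. Gclm overlaps Gm17494 and the pseudogene Gm6061, and Txnrd1 also overlaps Gm38560 and Gm47073. None of these has a row of counts.

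Of 10 genes for NRF2, its partners and its control, 1 fell and none rose, with a median log2 fold change of -0.17. Over all genes tested 12.4% were called. Nfe2l2 itself was at 75.1, 74.7 and 67.7 CPM in WT and at 63.6, 54.8 and 62.8 CPM in CgA-KO livers, every CgA-KO liver below WT (log2 fold change -0.26, edgeR adjusted p = 0.338), a difference that went to 0.0034 with library size alone. Keap1, the adaptor for NRF2 degradation, had means of 43.7 ± 7.94 and 43.0 ± 9.44 CPM (log2 fold change -0.03, edgeR adjusted p = 0.954). Bach1, the heme-sensing repressor of Hmox1, was at 26.6, 36.7 and 46.0 CPM in WT and at 29.0, 26.2 and 26.4 CPM in CgA-KO livers, overlapping through WT replicate 1 (log2 fold change -0.42, edgeR adjusted p = 0.225). Maff, a small MAF protein, fell from 7.03 ± 0.758 to 2.83 ± 0.976 CPM (log2 fold change -1.31, edgeR adjusted p = 0.0318), but lost the call when any 1 of the 6 libraries was left out, with adjusted p up to 0.130, and with library size alone.

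Among 25 further NRF2 targets 2 rose and 1 fell, close to the 12.4% called over all genes, and the median log2 fold change was -0.19. G6pdx, the first enzyme of the NADPH-yielding pentose phosphate pathway, was at 4.12, 2.98 and 2.96 CPM in WT and at 11.8, 20.9 and 21.6 CPM in CgA-KO livers. It rose 5.45-fold (log2 fold change 2.45, standard error 0.297, edgeR adjusted p = 0.0039). Me1, the cytosolic malic enzyme and another source of NADPH, was at 109.5, 195 and 162 CPM in WT and at 43.6, 37.2 and 54.7 CPM in CgA-KO livers and fell (log2 fold change -1.78, standard error 0.263, edgeR adjusted p = 0.00603). G6pdx and Me1 thus moved in opposite directions, without overlap of the genotypes in either, and both kept the call in all 13 alternatives. The macrophage marker sums given for Hmox1 moved in the same direction as G6pdx. The part of cell types in either gene was not tested. The sulfotransferase gene Sult5a1 rose from 7.27 ± 1.03 to 15.4 ± 5.53 CPM (log2 fold change 1.09, edgeR adjusted p = 0.0376), and the call was lost with a replicate block and without WT replicate 2 or 3 or CgA-KO replicate 1 or 2, with an adjusted p up to 0.113.

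**Figure D4:**
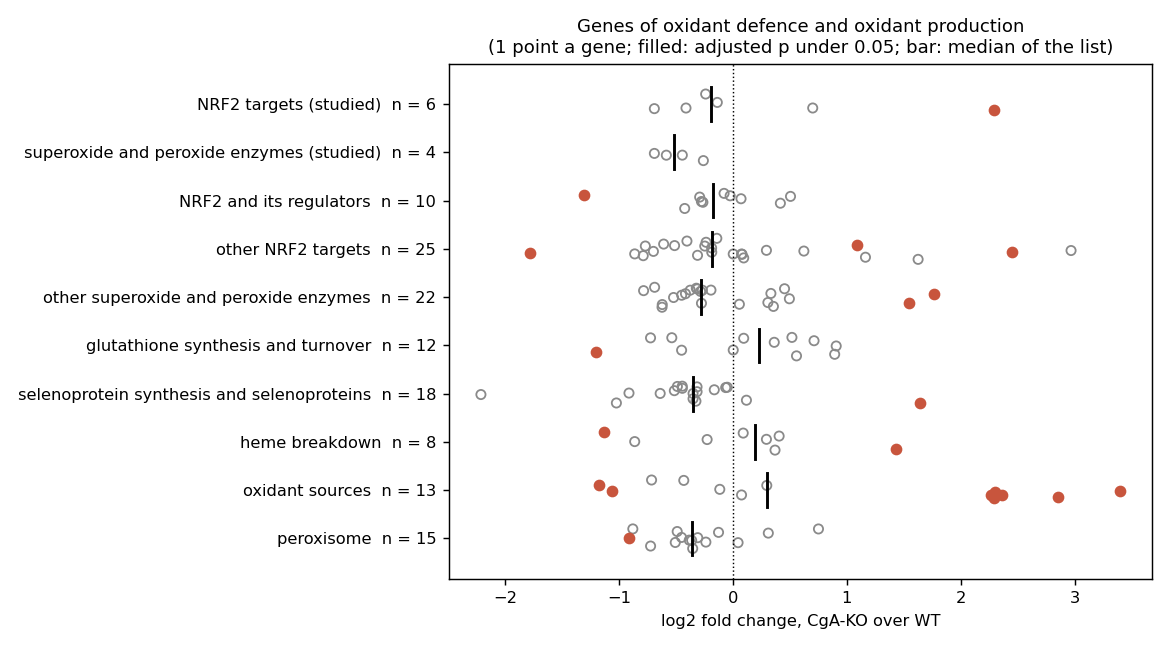
Log2 fold change (CgA-KO over WT) of every tested gene, 1 point a gene, with the 10 studied genes in the upper rows and the 8 further lists below them, called genes filled and the median of each row as a bar. The 13 oxidant source genes hold the most called genes, 6 higher and 2 lower, and the points of the selenoprotein and peroxisome lists lie mostly below 0.

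Of 22 other genes for superoxide and peroxide removal 2 rose and none fell, beside 8.60% called higher and 3.84% lower over all genes tested. Their median log2 fold change was -0.28. Both called genes encode secreted enzymes. Sod3, the extracellular dismutase, was at 13.7, 16.4 and 16.0 CPM in WT and at 33.0, 76.3 and 25.5 CPM in CgA-KO livers (log2 fold change 1.55, edgeR adjusted p = 0.0295). Gpx3, the plasma glutathione peroxidase, was at 7.79, 5.19 and 3.26 CPM in WT and at 17.7, 28.7 and 8.07 CPM in CgA-KO livers (log2 fold change 1.77, edgeR adjusted p = 0.0419). Both were highest in CgA-KO replicate 2, but each lost the call when single libraries were left out, Sod3 without any WT replicate or CgA-KO replicate 1 (adjusted p up to 0.136) and Gpx3 without WT replicate 2 or 3 or CgA-KO replicate 1 or 2 (up to 0.177). With the filter of at least 1 count in total neither was called, and Gpx3 was not called in limma-voom. Their intracellular relatives Sod1 and Gpx1 had log2 fold changes of -0.45 and -0.69, and neither was called.

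Among 12 tested genes of glutathione synthesis and turnover 1 fell and none rose, beside 12.4% called over all genes tested. Their median log2 fold change was 0.23. The gene that fell was Chac2, which degrades glutathione, from 28.5 ± 9.80 to 12.4 ± 1.62 CPM (log2 fold change -1.20, edgeR adjusted p = 0.0213). Of 18 tested genes for selenoproteins and their synthesis, the class of GPX1 and TXNRD1, 16 had negative log2 fold changes (median -0.35), but the only called gene rose, Selenon of the endoplasmic reticulum, from 2.23 ± 0.873 to 6.84 ± 1.33 CPM (log2 fold change 1.64, edgeR adjusted p = 0.0184). Of 15 tested peroxisome genes, the compartment of catalase, 12 had negative log2 fold changes (median -0.36). These counts of negative values were taken with TMM. With library size alone the median over all genes tested moved from -0.01 to 0.26. Pex11a, which promotes peroxisome division, fell from 187 ± 28.2 to 99.5 ± 19.8 CPM (log2 fold change -0.91, edgeR adjusted p = 0.0314). Chac2 and Selenon each lost the call without any one of WT replicates 2 and 3 and CgA-KO replicates 1 and 2, and Pex11a without WT replicates 1 or 3 or the same CgA-KO livers, with library size alone and with the block.

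Around Hmox1, 8 genes of heme synthesis, transport and breakdown gave 1 higher and 1 lower call, beside 12.4% called over all genes tested. Flvcr1, a heme exporter, rose from 2.31 ± 0.262 to 6.19 ± 1.31 CPM (log2 fold change 1.43, edgeR adjusted p = 0.0163). Alas1, the first enzyme of heme synthesis, was at 698, 442 and 966 CPM in WT and at 259, 370 and 330.1 CPM in CgA-KO livers and fell (log2 fold change -1.14, edgeR adjusted p = 0.0474). Alas1 lost the call in 9 of the 13 alternatives, among them every omission of 1 library other than WT replicate 2 (adjusted p up to 0.193), and Flvcr1 without WT replicate 2 or 3 or CgA-KO replicate 1 or 2.

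Enzymes that make oxidants held the largest number of calls among these lists, 6 higher and 2 lower of 13 tested (median 0.30 on the log2 scale). Cybb, the catalytic subunit of the phagocyte NADPH oxidase, was at 16.9, 7.10 and 5.89 CPM in WT and at 77.4, 90.4 and 143 CPM in CgA-KO livers. It rose 10.6-fold (log2 fold change 3.40, standard error 0.433, edgeR adjusted p = 0.00434) with no overlap between the genotypes. Its membrane partner Cyba rose from 8.45 ± 3.86 to 41.0 ± 7.83 CPM (log2 fold change 2.30, edgeR adjusted p = 0.00611). Both kept the call in all 13 alternatives. The cytosolic subunit Ncf1 rose with less certainty, from 12.4, 2.64 and 3.47 CPM in WT to 44.6, 31.9 and 15.2 CPM in CgA-KO livers (log2 fold change 2.36, edgeR adjusted p = 0.0357), and lost the call in 7 alternatives, including the omission of WT replicate 2 or 3 or CgA-KO replicate 1 or 2 (adjusted p up to 0.208). These are phagocyte genes, and the macrophage and neutrophil marker sums given for Hmox1 moved in the same direction. The part of those cells in these 3 genes was not tested.

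The lower calls on that list were Hao1, the peroxisomal glycolate oxidase of hepatocytes (from 186 ± 49.7 to 82.0 ± 23.9 CPM, log2 fold change -1.18, edgeR adjusted p = 0.0291), and Nox4 (from 56.3 ± 17.6 to 27.0 ± 7.99 CPM, log2 fold change -1.06, edgeR adjusted p = 0.0471). Hao1 lost the call without WT replicate 2 or 3 or CgA-KO replicate 1 or 2 (adjusted p up to 0.111), and Nox4 in 9 alternatives, among them every omission of 1 library other than WT replicate 1 (up to 0.171). Cyp2e1, the ethanol-metabolizing cytochrome P450 that leaks oxidants, was at 4379.9, 7910.4 and 6181 CPM in WT and at 4095, 8835 and 4113 CPM in CgA-KO livers, interleaved between the genotypes (log2 fold change -0.12, edgeR adjusted p = 0.881). Over the 8 lists 19 of the 119 tested genes were called, 12 higher and 7 lower, beside a share of 12.4% over all genes tested.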

How the data were processed

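Poly(A)-selected liver RNA was measured by RNA-seq in 3 WT and 3 CgA-KO mice, 1 library per mouse. The authors quantified reads with Salmon 1.4.0 against the GRCm38 transcriptome and deposited whole-number counts per gene, not normalized; how transcripts were summed to genes is not given in the sources used here. Counts were fitted with edgeR 4.0.16 in R 4.3.3 (filterByExpr with a minimum count of 10, TMM, robust quasi-likelihood F-test of genotype, Benjamini-Hochberg over all 13867 genes tested, calls at 0.05). The standard error is the log2 fold change over the square root of F, and 95% intervals use the fit's t quantiles. Single values were compared by two-sided exact permutation tests. The procedure was tested on simulated data. Alternatives were DESeq2 1.42.0, limma-voom (limma 3.58.1), library size alone, upper-quartile factors, 2 other filters, a replicate block and leaving out each library.

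Of each further list, the 3 called genes with the smallest p in each direction are named, plus Nfe2l2, Keap1, Bach1, Cybb, Ncf1 and Cyp2e1. One gene under this rule is left out here. Marker lists are given by counts and sums, with the 2 markers of smallest p where a list moves with a gene. The 10 genes, the lists and the tests were chosen with earlier results of these data known. Coordinates are from GENCODE on GRCm38, and matplotlib 3.10.9 (Python 3.11.15) drew the figures. Raw reads were not analysed here.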

Additional observations from a re-analysis of the deposited data

How the results depend on the processing

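With 3 livers a genotype, the 95% intervals of most of the 10 genes span decreases and increases. Every count was 94 or more. The separation of Nqo1 rests on 8.87 CPM (191 counts) in CgA-KO replicate 1 above 8.59 CPM (202 counts) in WT replicate 2. Whether that gap exceeds counting error was not tested. Of the 10 genes, 1 was called in all alternatives but DESeq2, which called 2, with 1 lower (Gclc). Call and direction were the same under all 13 alternatives for 6 of the 10 genes. The exceptions besides Gclc were Txnrd1, with a log2 fold change of 0.15 with library size alone, Sod2 with 0.025, and Srxn1, with 0.059 in limma-voom, 0.036 with a replicate block and -0.80 to 0.99 when 1 library was left out. For Nfe2l2 library size alone gave 0.0034, for Cyp2e1 0.20, and for Keap1 0.27, with 0.037 for upper-quartile factors and 0.013 for at least 10 counts in every library. Leaving out 1 library gave -0.54 to 0.11 for Cyp2e1 and -0.18 to 0.13 for Keap1. The cause of these reversals was not tested.

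Across the table, 1726 genes were called by edgeR and 2592 by DESeq2. Leaving out 1 library gave 394 (without WT replicate 3) to 2126, with 841 where WT replicate 2 was omitted, and 744 or 976 where CgA-KO replicate 1 or 2 was. Library size alone raised the share of higher calls from 69.1% to 86.6%, leaving out WT replicate 2 lowered it to 55.8%, and leaving out CgA-KO replicate 1 raised it to 80.5%. Over the 8 lists, 19 genes were called by edgeR, 35 by DESeq2, and 5 to 20 with 1 library left out (5 without WT replicate 3 or CgA-KO replicate 1, 7 without WT replicate 2 or CgA-KO replicate 2). Of the 17 called list genes that the naming rule covers, 5 kept the call in all 13 alternatives, 12 lost it in at least 1, and 0 changed direction. The replicate numbers did not pair the samples, with correlations of 0.20, 0.01 and -0.07 between the deviations of livers of the same number. A replicate block called 1498 genes, 1 of the 10 genes and 16 list genes.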
